A study of Mus musculus with 4 samples.

Results

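Plasma cell identity genes are the genes whose products define an antibody-secreting plasma cell. The 9 described here are Prdm1, Irf4, Xbp1 and Pou2af1, which encode regulators of transcription, Sdc1, a surface protein, Jchain, Mzb1 and Fkbp11, which encode parts of the antibody-secreting machinery, and Trap1a, a tumour antigen gene. They were taken by symbol from tables of 24421 genes. The rule sets no threshold on measured values, but the genes were chosen with earlier results of these data known. RNA was sequenced from 4 J558 allografts, 1 library each. J558 is a plasmacytoma line of BALB/c mice, a tumour of the plasma cell lineage, and its cells were placed under the skin of the right flank of female BALB/c mice, so that the tumours grew in hosts with an intact immune system. The vehicle-treated group (Vehicle-1 and Vehicle-2) received methylcellulose and the TAK-931-treated group (TAK-931-1 and TAK-931-2) received TAK-931, an inhibitor of the replication kinase CDC7, at 60 mg/kg once daily, and tumours were taken on day 6. Every library carried the same single tumour line, no age was labelled, and RNA of host cells was part of each sample.

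During differentiation of a B cell into a plasma cell, IRF4 and the repressor encoded by Prdm1 (BLIMP1) switch off the B cell programme, and XBP1 enlarges the endoplasmic reticulum so that the cell can fold and export antibody. POU2AF1 is a coactivator that works with octamer-binding factors at immunoglobulin promoters. SDC1 is a heparan sulphate proteoglycan widely used as the surface marker of plasma cells. The joining chain encoded by Jchain links IgM and IgA units into polymers, MZB1 assists the assembly of antibody in the endoplasmic reticulum, and FKBP11 is a peptidyl-prolyl isomerase of the same compartment. Trap1a encodes an antigen of mouse tumours that T cells can recognise, and it marks the tumour cells rather than the plasma cell state. Prdm1 and Irf4 are also used by activated T cells and by macrophages and dendritic cells, and Sdc1 by epithelia.

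Library totals ranged from 16487902 to 19589339 counts. The libraries Vehicle-1 and Vehicle-2 correlated at 0.977 across genes on the log2 CPM scale, where CPM is a count scaled to a common library total by TMM. TAK-931-1 stood apart, with correlations of 0.806 and 0.791 with the vehicle libraries, whereas TAK-931-2 correlated with them at 0.950 and 0.939. Genes are not independent replicates, so these correlations describe the libraries only. The comparisons of groups are therefore given with values of both TAK-931-treated libraries. Cdc7, which encodes the target of the drug, stood between 21.2 and 23.0 CPM in all 4 libraries, which checks no label because an inhibitor need not change its target's transcript.

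All 9 genes were expressed in every library, and 8 of them ranked among the 435 most abundant of 13669 tested genes by mean RPKM (CPM per kilobase of exon). In the vehicle-treated allografts, Jchain was the highest, at 2417 and 2691 RPKM, followed by Pou2af1 at 2035 and 1900 RPKM. Trap1a stood at 960 and 933 RPKM, and Mzb1 at 882 and 896 RPKM. Xbp1 followed at 472 and 471 RPKM, Fkbp11 at 241 and 267 RPKM, Sdc1 at 228 and 226 RPKM and Irf4 at 157 and 163 RPKM. Prdm1 was the lowest, at 33.1 and 32.0 RPKM, and ranked 2851. No neighbouring pair in this order overlapped between the vehicle libraries. In TAK-931-1 the order was almost kept, from Jchain at 1492 RPKM to Prdm1 at 17.2 RPKM, but Mzb1 stood above Trap1a and Sdc1 above Fkbp11. In TAK-931-2, Irf4 at 357 RPKM stood above both Sdc1 at 192 RPKM and Fkbp11 at 165 RPKM. In the order of the means with TAK-931, each neighbouring pair overlapped over the treated libraries except Fkbp11 and Prdm1, where the highest Prdm1 value of 42.7 RPKM lay under the lowest Fkbp11 value of 72.9 RPKM.

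**Figure D1:**
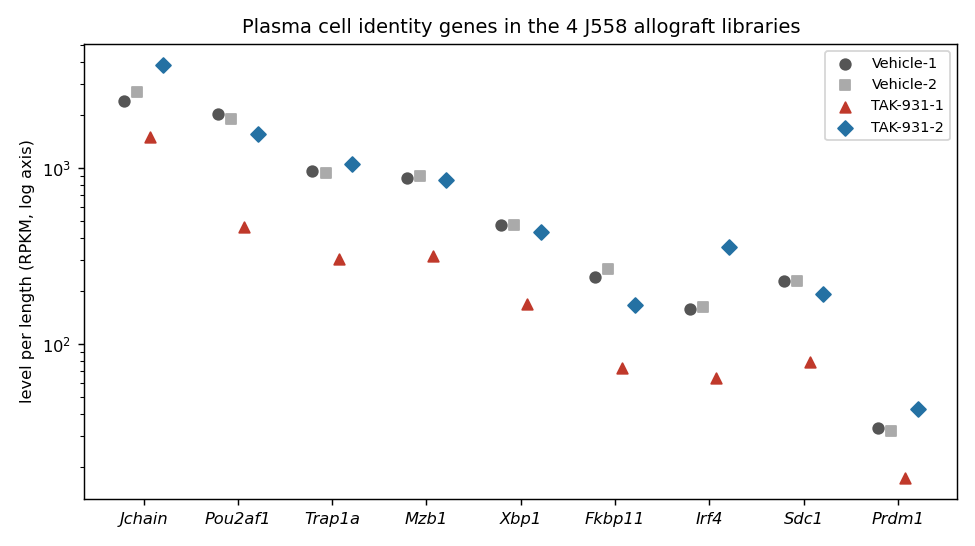
Level of each plasma cell identity gene in every library, in RPKM on a log axis. Each point is 1 library, and TAK-931-1 is the lowest point for 9 of 9 genes.

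The labels give the cell type as B lymphocyte, so transcripts that mark mature B cells were read beside the plasma cell genes. Pax5, the factor that maintains B cell identity, had 0 counts in all 4 libraries, which does not exclude a low level. Ms4a1, which encodes the B cell surface protein CD20, was detected at 30.5 and 30.2 CPM with vehicle, 13.3 CPM in TAK-931-1 and, in TAK-931-2, 52.7 CPM. Cd22, a B cell inhibitory receptor gene, was at 1.42 and 1.32 CPM with vehicle, 41.7 CPM in TAK-931-1 and, in TAK-931-2, 11.4 CPM. Cr2, a complement receptor gene, had 4 counts in Vehicle-1 and in TAK-931-2 and 0 in the others. These B cell markers thus did not move in one direction. The members together took 1.49%, 1.53%, 0.583% and 1.84% of all counts (Vehicle-1, Vehicle-2, TAK-931-1, TAK-931-2), so the plasma cell genes were abundant in each library and least so in TAK-931-1.

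The comparison of TAK-931 with vehicle asks whether tumours that had received the CDC7 inhibitor kept these transcripts. None of the 9 genes passed edgeR's quasi-likelihood test at an adjusted p of 0.05 (0 of 9, beside 0% of all genes tested), and 0 of 9 had an unadjusted p under 0.05, beside 18.1% of all genes (11.6% higher and 6.55% lower). DESeq2 also called 0 members, beside 10.4% of the genes it gave an adjusted p, and had 1 member at an unadjusted p under 0.05, beside 23.5% of all genes. The limma-voom fit called 0 members, beside 0% of all genes, and had 0 members at an unadjusted p under 0.05, beside 13.6%. The log2 fold change was negative for 7 of 9 members, beside 49.0% of all genes, and its median was -0.60, beside 0.02 over all genes. Both TAK-931-treated libraries lay below both vehicle libraries for 5 of 9 members (Xbp1, Pou2af1, Sdc1, Mzb1 and Fkbp11), beside 32.7% of all genes, and above both for 0 of 9, beside 30.0%. Scaled by library totals only, Mzb1 overlapped and 4 members remained. The groups overlapped for Prdm1, Irf4, Jchain and Trap1a. In bulk samples, fewer cells of a type and less RNA per cell cannot be told apart, and this holds for every value below.

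The spread between the TAK-931-treated libraries was far larger than that between the vehicle libraries. TAK-931-1 was the lowest library for 9 of 9 members, beside 41.4% of all genes, at 0.234 to 0.584 of the vehicle mean. TAK-931-2 was below both vehicle libraries for 5 of 9 members and above both for 4, shares near those of all genes (44.4% and 42.3%), at 0.650 to 2.23 times the vehicle mean. The median difference from the vehicle mean on the log2 CPM scale was -1.50 for the members of TAK-931-1 and -0.05 for those of TAK-931-2, beside -0.02 and -0.01 over all genes. Between the vehicle libraries the members differed by a median of 0.05 in size on the log2 scale (0.16 over all genes), and between the TAK-931-treated libraries by 1.37 (0.70 over all genes). With TAK-931-1 left out, 6 members passed the edgeR test, beside 28.7% of all genes, and with TAK-931-2 left out all 9 did, beside 58.1%. In those fits the lone treated library is assumed to vary as little as the vehicle pair, so any call from them compares 1 library with vehicle.

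**Figure D2:**
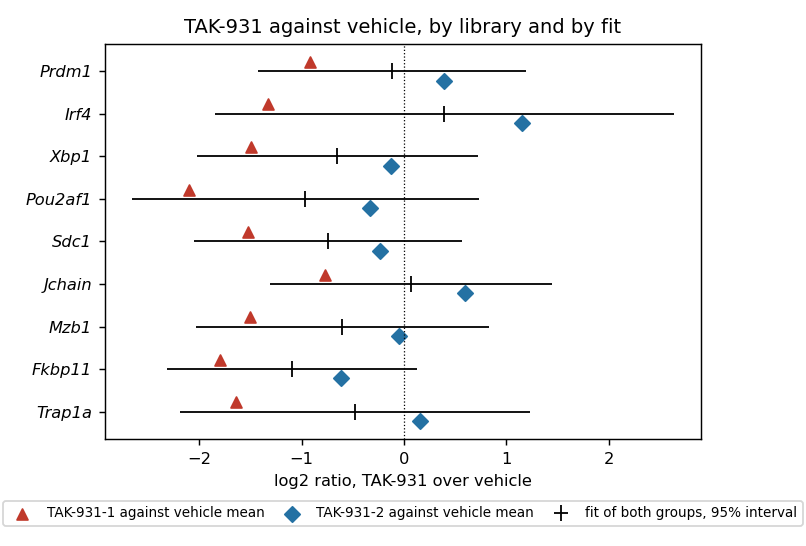
Log2 difference of each TAK-931-treated library from the vehicle mean (points) and the edgeR log2 fold change with its 95% interval (bars) for each gene. Every TAK-931-1 point lies below 0, the TAK-931-2 points lie on both sides, and every interval includes 0.

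Among the regulators, Prdm1 was read at 172 CPM in Vehicle-1, 166 CPM in Vehicle-2, 89.6 CPM (TAK-931-1) and 222 CPM (TAK-931-2) with treatment. The treated libraries lay on opposite sides of the vehicle pair. The edgeR log2 fold change was -0.12 (SE 0.48, 95% interval -1.42 to 1.19, adjusted p = 0.895). Irf4, the regulator whose dose sets the balance between B cell and plasma cell states, was at 737, 762, 298 and 1671 CPM in the same order of libraries. It had the widest range of the 9 genes, with TAK-931-2 at 5.60 times the level of TAK-931-1 and at 2.23 times the vehicle mean. Its edgeR log2 fold change was 0.39 (SE 0.83, 95% interval -1.85 to 2.64, adjusted p = 0.791).

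Xbp1, the driver of the secretory apparatus, was at 1059 CPM in both vehicle libraries, 377 CPM (TAK-931-1) and 972 CPM (TAK-931-2) with treatment. Both treated values lay below the vehicle pair, TAK-931-1 at 0.356 and TAK-931-2 at 0.918 of its mean. The edgeR log2 fold change was -0.65 (SE 0.51, adjusted p = 0.470). Pou2af1, the octamer coactivator, was at 5222 and 4875 CPM with vehicle and at 1181 and 3999 CPM with TAK-931, in TAK-931-1 at 0.234 of the vehicle mean, the lowest of the 9. Its edgeR log2 fold change of -0.96 had an SE of 0.63 and an adjusted p of 0.401. Counts per gene do not separate the spliced from the unspliced Xbp1 transcript, so the active form was not measured.

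Sdc1, the surface marker, was at 696 and 692 CPM in the vehicle libraries, 241 CPM (TAK-931-1) and 588 CPM (TAK-931-2) with treatment. Again both treated libraries were lower, at 0.348 and 0.847 of the vehicle mean, but the edgeR log2 fold change of -0.74 (SE 0.48, adjusted p = 0.401) was within the spread between the libraries. Keratinocytes also express Sdc1, and the summed level of 5 keratinocyte markers was 2.13 CPM in Vehicle-1, 34.9 CPM in Vehicle-2, 17.0 CPM (TAK-931-1) and 2.16 CPM (TAK-931-2) with treatment. Their part in the Sdc1 values was not tested.

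Among the secretory genes, Jchain was at 5080 and 5658 CPM with vehicle and at 3136 and 8124 CPM with TAK-931. The treated libraries fell on opposite sides of the vehicle libraries, and the edgeR log2 fold change was 0.07 (SE 0.51, 95% interval -1.31 to 1.45, adjusted p = 0.946). Mzb1 was at 799 and 812 CPM with vehicle, 285 CPM (TAK-931-1) and 777 CPM (TAK-931-2) with treatment. TAK-931-2 was only just below the vehicle pair, at 0.964 of its mean, and the edgeR log2 fold change was -0.60 (SE 0.53, adjusted p = 0.516). Part of the Mzb1 exons, 695 bases or 76.7% of their length, is shared in GENCODE vM21 with a model of Spata24 on the same strand, so its counts are less certain. Fkbp11 was at 177 and 197 CPM with vehicle, 53.6 CPM (TAK-931-1) and 122 CPM (TAK-931-2) with treatment. TAK-931-1 stood at 0.287 of the vehicle mean and TAK-931-2 at 0.650, the lowest TAK-931-2 value of the 9 genes, and Fkbp11 had the lowest edgeR p of the 9 (log2 fold change -1.09, SE 0.45, 95% interval -2.31 to 0.13, unadjusted p = 0.0681, adjusted p = 0.283).

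Trap1a, the tumour antigen, was at 1127 and 1095 CPM with vehicle, 356 CPM (TAK-931-1) and 1235 CPM (TAK-931-2) with treatment. As a gene that marks the tumour cells it stood at 0.320 (TAK-931-1) and 1.11 (TAK-931-2) times the vehicle mean, with an edgeR log2 fold change of -0.48 (SE 0.63, adjusted p = 0.658). The genes lie on separate chromosomes: Prdm1 at chr10:44437174-44458748, Irf4 at chr13:30749258-30766927, Xbp1 at chr11:5520641-5525993, Pou2af1 at chr9:51213690-51240079, Sdc1 at chr12:8771396-8793687, Jchain at chr5:88519809-88527897, Fkbp11 at chr15:98724368-98728198 and Trap1a at chrX:139333683-139338165 (mm10). Their values count reads over all exons, between 3 merged exons for Trap1a and 9 for Irf4.

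The promoters are shown for Irf4, the member with the widest range over the libraries, for Pou2af1, the member lowest in TAK-931-1 relative to vehicle, for Jchain as the most abundant member and for Trap1a as the tumour antigen. The windows hold 250 bases before and 50 after the RefSeq start site (GRCm38.p6), 5′ to 3′ on the strand of the gene. They are chr9:51213440-51213739 on the plus strand for Pou2af1, chr13:30748983-30749282 on the plus strand for Irf4, chr5:88527848-88528147 on the minus strand for Jchain and chrX:139333433-139333732 on the plus strand for Trap1a. Capitals mark matches on either strand to the octamer ATGCAAAT, to TGACGTGG, the core of the unfolded protein response element to which XBP1 binds, to CCAAT or to TATAAA.
Pou2af1: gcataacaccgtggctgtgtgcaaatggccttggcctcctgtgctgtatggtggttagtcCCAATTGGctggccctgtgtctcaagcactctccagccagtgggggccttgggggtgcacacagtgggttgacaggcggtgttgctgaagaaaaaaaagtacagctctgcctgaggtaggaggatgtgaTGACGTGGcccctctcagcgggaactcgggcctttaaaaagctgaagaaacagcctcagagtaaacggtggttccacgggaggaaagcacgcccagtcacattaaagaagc
Irf4: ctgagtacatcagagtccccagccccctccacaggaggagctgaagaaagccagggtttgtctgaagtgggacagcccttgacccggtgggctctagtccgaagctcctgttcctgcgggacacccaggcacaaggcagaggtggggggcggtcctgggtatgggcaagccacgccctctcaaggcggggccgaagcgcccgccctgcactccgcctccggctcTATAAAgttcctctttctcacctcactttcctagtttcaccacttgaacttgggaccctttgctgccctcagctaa
Jchain: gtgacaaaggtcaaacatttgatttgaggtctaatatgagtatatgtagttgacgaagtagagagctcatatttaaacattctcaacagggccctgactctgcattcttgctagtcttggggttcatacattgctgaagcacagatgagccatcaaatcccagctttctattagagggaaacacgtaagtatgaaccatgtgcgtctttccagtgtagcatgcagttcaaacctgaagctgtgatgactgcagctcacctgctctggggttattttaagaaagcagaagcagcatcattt
Trap1a: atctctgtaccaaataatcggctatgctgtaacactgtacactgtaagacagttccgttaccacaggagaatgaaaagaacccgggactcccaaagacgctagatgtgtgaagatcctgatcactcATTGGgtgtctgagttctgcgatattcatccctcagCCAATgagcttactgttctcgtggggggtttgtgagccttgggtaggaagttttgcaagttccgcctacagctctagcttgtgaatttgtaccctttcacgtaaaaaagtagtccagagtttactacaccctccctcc
Windows of 8 members were searched, among 32851 windows of the same length. The octamer was in none of the 8, beside 1.74% of all windows, and the XBP1 core was found in Pou2af1 only, from -61 to -54 relative to the start, beside 0.676% of all windows. The Pou2af1 window also held CCAAT on both strands, in overlapping matches, and Trap1a held it at both -124 and -88 (37.4% of all windows), while Irf4 held TATAAA from -26 to -21 (13.6%). Jchain held none of these letters. A match is a description of the letters, not of binding, and an absent match says nothing on the factor.

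Ratios between 2 members within a library do not depend on how the library is scaled, and a shift shared by both leaves them unchanged. RNA of host cells that express a member can also move its ratio, and the part of those cells was not tested. Relative to Trap1a, per length, Pou2af1 stood at 2.12 and 2.04 with vehicle and at 1.52 and 1.48 with TAK-931. Fkbp11 stood at 0.251 and 0.287 with vehicle and at 0.241 and 0.157 with TAK-931. Both were lower in each treated library than in each vehicle library, beside 4.10% of all genes. Jchain stood at 2.52 and 2.89 with vehicle and at 4.93 and 3.67 with TAK-931. Irf4 stood at 0.164 and 0.174 against 0.210 and 0.339, and Prdm1 at 0.0344 and 0.0343 against 0.0568 and 0.0406. These 3 of 8 were higher in each treated library, beside 32.5% of all genes, and Xbp1, Sdc1 and Mzb1 overlapped. The ratios are given as a description and were not tested, and with 2 libraries against 2 an exact permutation test could not have given a p below 0.333.

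Trap1a is one of many possible references, and Xbp1 was added as another after the values were seen. Relative to Xbp1, Jchain was at 5.13 and 5.71 with vehicle and at 8.89 and 8.93 with TAK-931, 1.64 times the vehicle mean. Prdm1 was at 0.0701 and 0.0679 with vehicle and at 0.103 and 0.0988 with TAK-931, so its treated values, like those of Jchain, lay close together. Irf4 was at 0.334 and 0.345 with vehicle but at 0.379 and 0.824 with TAK-931, so its ratio was far apart in the treated libraries. Members lower in both treated libraries relative to Xbp1 were Pou2af1 (4.32 and 4.03 against 2.74 and 3.60), Sdc1 (0.483 and 0.480 against 0.471 and 0.445) and Fkbp11 (0.511 and 0.567 against 0.434 and 0.382), 3 of 8 beside 5.02% of all genes. The 3 higher members, Prdm1, Irf4 and Jchain, stand beside 49.0% of all genes.

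**Figure D3:**
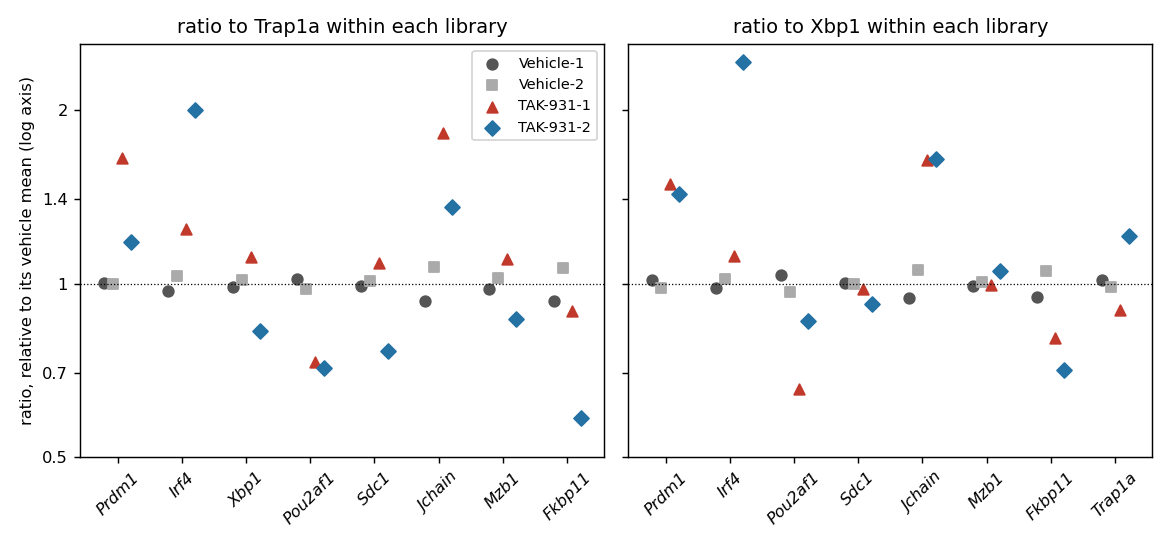
Ratio of each gene to Trap1a (left) and to Xbp1 (right) in each library, on a log axis. Each ratio is divided by its own vehicle mean, so vehicle points lie near 1. Jchain, Irf4 and Prdm1 lie higher in both treated libraries in either panel, and Pou2af1 and Fkbp11 lie lower. Sdc1 lies lower in both treated libraries in the right panel only.

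Shares of the summed RPKM restate the same values and are not a further result. Jchain took 32.5% and 35.5% of the summed RPKM of the 9 genes with vehicle, and 50.2% and 45.3% with TAK-931. Pou2af1 took 27.4% and 25.1% with vehicle, and 15.5% and 18.3% with TAK-931. Neither share overlapped between the groups, nor did those of Prdm1, Xbp1, Sdc1, Mzb1 and Fkbp11, whereas those of Irf4 and Trap1a overlapped. The shares are parts of a single sum, so they are not independent, and no share over all genes stands beside them.

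Over all 36 pairs of members, the log2 ratio within a library varied least for Xbp1 and Mzb1, over a range of 0.08 across the 4 libraries. Xbp1 and Sdc1 varied over 0.12 and Sdc1 and Mzb1 over 0.20, and Prdm1 and Jchain over 0.31. Without TAK-931-2 the first 3 ranges were 0.02, 0.04 and 0.04, and that of Prdm1 and Jchain was 0.25, wider than those of several other pairs. Without TAK-931-1 the range of Prdm1 and Jchain stayed at 0.31, and several other pairs fell below it, among them Pou2af1 and Sdc1 at 0.14. The place of Prdm1 and Jchain thus rests on both treated libraries. The widest pairs both held Irf4, over 1.83 with Fkbp11 and 1.57 with Pou2af1, but without TAK-931-2 these fell to 0.52 and 0.84 and the widest was Pou2af1 with Jchain at 1.45. These ranges are over 4 libraries and carry no test.

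Among 9620 genes with a mean log2 CPM over 3, the profile most like that of Xbp1 across the 4 libraries, by Euclidean distance of centred log2 CPM, was Ckap4 (0.0101), followed by Cdc14b (0.0503). For Mzb1 the nearest were Xk (0.0353) and Xbp1 itself (0.0670). For Trap1a they were Lzts3 and Txndc5, a protein disulphide isomerase gene. Sdc1 was nearest to Lancl1 and Capn5, Pou2af1 to Mettl13 and Gstt1, Fkbp11 to Akap1 and 4931414P19Rik, Prdm1 to Hmgxb3 and Kif18b, and Jchain to Siah2 and Btg2. Irf4 had no close match, with Map3k13 at 0.293 and Creb3l2 at 0.325. Likeness over 4 libraries is a description and carries no test.

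Other genes of plasma cells and of their secretory pathway were read from lists written with earlier results of these data known, and their values are given in the order Vehicle-1, Vehicle-2, TAK-931-1, TAK-931-2. Of 24 other plasma cell genes, 23 were tested, 0 passed the edgeR adjusted threshold, 14 had a negative log2 fold change, beside 49.0% of all genes, and 9 a positive one, and the median was -0.24. The treated libraries lay on opposite sides of vehicle, with a median difference from the vehicle mean of -1.11 (TAK-931-1) and 0.35 (TAK-931-2) on the log2 scale. At an unadjusted edgeR p under 0.05, 6 were higher, beside 11.6% of all genes, and 0 lower, beside 6.55%. The groups did not overlap for 7 lower genes, beside 32.7% of all genes, and 7 higher, beside 30.0%. Txndc5 was at 1339, 1360, 442 and 1550 CPM, and Sec11c, a signal peptidase subunit gene, at 549, 561, 272 and 513 CPM. Txndc11 was at 438, 459, 124 and 378 CPM. The 3 followed the members in being lowest in TAK-931-1, as did 16 of 23 in all, beside 41.4% of all genes. The 6 at an unadjusted p under 0.05 were Ly6c2, Cd38, Cd28, Itgb7, Cpeb4 and Prg2, named after their values were seen, and all 6 were higher in both treated libraries. Several of them are also expressed by T cells and myeloid cells, whose markers summed highest in TAK-931-1, and the part of those cells was not tested.

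Of 20 XBP1 secretory targets, 19 were tested and 18 had a negative log2 fold change, beside 49.0% of all genes, with a median of -0.35. The median difference from the vehicle mean was -0.80 (TAK-931-1) and -0.04 (TAK-931-2) on the same scale. Again 0 passed the adjusted threshold, and 1 was lower at an unadjusted edgeR p under 0.05, beside 6.55% of all genes. That gene was Creld2, named after its values were seen, at 489, 476, 162 and 300 CPM. Hspa5, the main chaperone of the endoplasmic reticulum, was at 2664, 2707, 1309 and 2142 CPM. Pdia6, a disulphide isomerase gene, was at 1705, 1696, 1104 and 2018 CPM, so that the groups overlapped, whereas Pdia4 at 1426, 1445, 513 and 1160 CPM was lower in both treated libraries. TAK-931-1 was the lowest library for 18 of 19, beside 41.4% of all genes, and 11 lay below both vehicle libraries in both treated libraries, beside 32.7% of all genes. Dnajc3 was the one target with a positive log2 fold change, named after its values were seen, at 87.4, 84.3, 160 and 96.7 CPM.

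**Figure D4:**
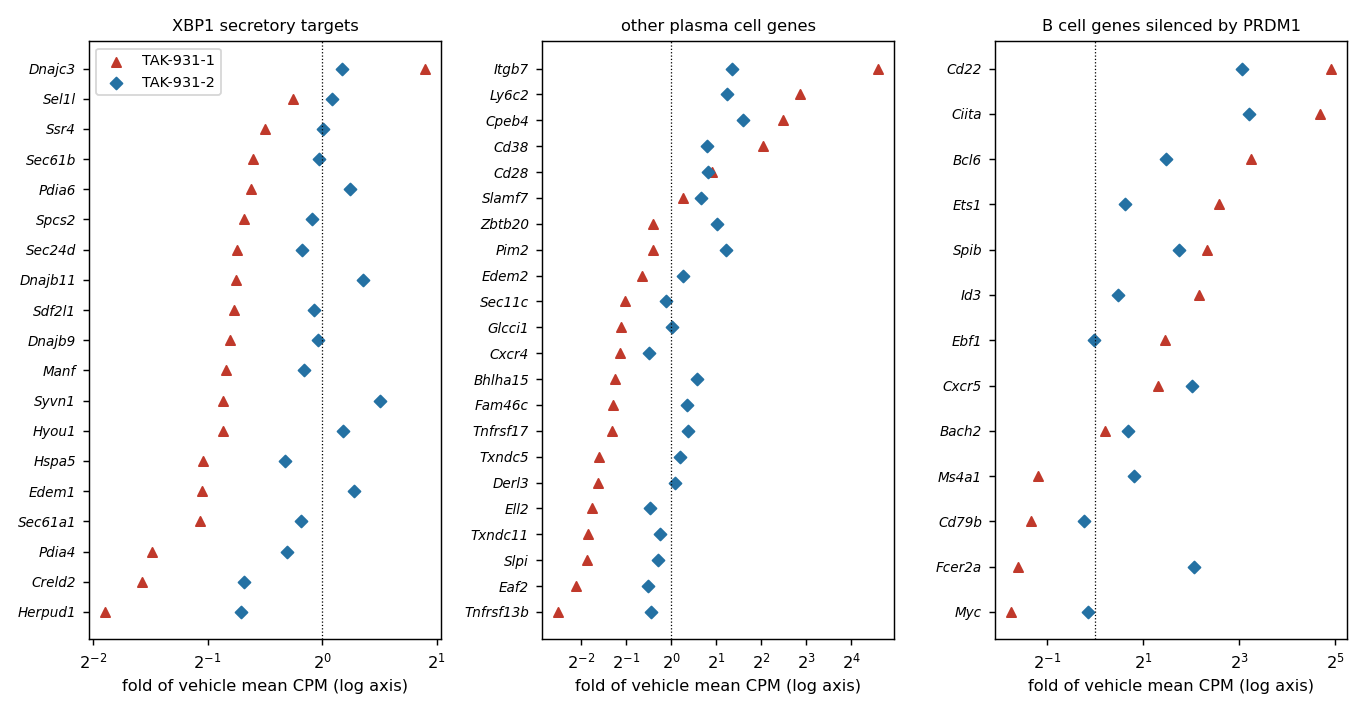
Fold of each list gene over the vehicle mean for either treated library (triangles TAK-931-1, diamonds TAK-931-2), on a log axis, for the genes tested in the 3 lists. Prg2 is left out because it had 0 and 3 counts in the vehicle libraries, and most secretory targets lie below 1 in TAK-931-1 and near 1 in TAK-931-2.

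Of 17 B cell genes that PRDM1 silences, 13 were tested, 11 with a positive log2 fold change and 2 with a negative one, and the median was 1.56. The median difference from the vehicle mean was 1.43 (TAK-931-1) and 0.80 (TAK-931-2) on the same scale. None passed the adjusted threshold, and 6 were higher at an unadjusted edgeR p under 0.05, beside 11.6% of all genes. The groups did not overlap for 7 higher genes, beside 30.0% of all genes, and 2 lower, beside 32.7%. The 2 with a negative fold change were the most abundant ones. Myc, the oncogene that drives cell growth, was at 1185, 1327, 370 and 1129 CPM, and Cd79b, a part of the B cell receptor, at 167, 209, 74.0 and 159 CPM. Ets1, which T cells also express, was at 42.5, 49.8, 274 and 70.7 CPM and was highest in TAK-931-1. The 6 higher genes were Ets1, Ciita, Cd22, Bcl6, Cxcr5 and Spib, named beyond Ets1 after their values were seen. All but Cxcr5 were highest in TAK-931-1, the library in which the T cell, NK cell and macrophage markers also summed highest, and the part of those cells in these values was not tested.

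Markers of host cells were read in every library because other cells also express some of the members. The summed CPM of 9 T cell markers was 31.1 and 21.1 with vehicle, 1123 (TAK-931-1) and 91.0 (TAK-931-2) with treatment, and 9 of 9 were highest in TAK-931-1. The 8 macrophage and monocyte markers summed to 543 and 459 with vehicle and to 7898 and 1418 with TAK-931, and the 6 fibroblast markers to 1857 and 2108 against 14643 and 5051. NK cell (5 genes) sums were 23.0, 8.21, 372 and 77.7, neutrophil (4) 6.29, 6.71, 127 and 15.2, and endothelial (5) 224, 240, 771 and 227. Muscle (5) sums were 81.6, 85.8, 556 and 11.4, and adipocyte (4) 45.1, 67.7, 263 and 28.6. Of the lists named here, genes at 0 in a library were Trat1, Klrb1c, S100a8, Retnlg and Plin1, and for the keratinocyte list, Krt5, Krt14, Krt15 and Dsg3. The 8 plasma cell genes summed to 13944 and 14219 with vehicle, 5661 in TAK-931-1 and 16474 in TAK-931-2. TAK-931-1 was thus the library with the lowest sum of plasma cell genes and the highest sums of T cell, macrophage and fibroblast markers, and the part of these cells in the members' values was not tested. In TAK-931-2 the same host sums were above vehicle, and so was the plasma cell sum, of which Jchain made up 8124 CPM. Xbp1, Pou2af1, Sdc1, Mzb1 and Fkbp11 were each below vehicle in that library, as given above.

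**Figure D5:**
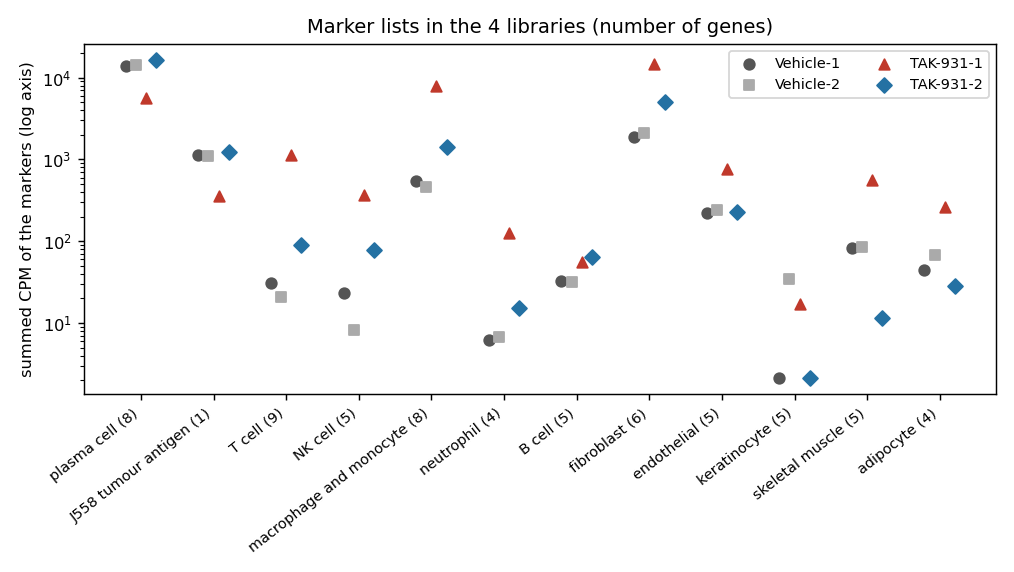
Summed CPM of each marker list in each library, on a log axis. The plasma cell sum is lowest in TAK-931-1, where most host cell sums are highest.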

How the data were processed

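The authors deposited 1 table of raw read counts per gene and library. The submitters' processing notes name STAR 2.6.1c, featureCounts (version not given) and mm10, and the strand setting is not given in the sources used here. The same deposited tables give each gene's summed exon length in bases, another column of the authors, used for RPKM. Odd values made up 17.9% to 23.9% of the counts from 1 to 20, so both mates of a pair appear to have been counted singly, and counting error is larger than the counts imply. The authors applied no normalization.

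Genes were kept with filterByExpr (minimum count 10), which left 13669 of 24421, and libraries were scaled by TMM. TAK-931 was compared with vehicle by the robust quasi-likelihood test of edgeR 4.0.16 in R 4.3.3, two-sided, treatment as the only term, with Benjamini-Hochberg adjustment over all genes tested at 0.05. SE is the log2 fold change over the root of F. Log2 values of single libraries used a prior count of 2. Alternatives were other scalings and filters, a replicate block, leaving out each library, DESeq2 1.42.0 and limma-voom 3.58.1. The code was tested on simulated data. The members and lists were chosen with earlier results of these data known. Genes named are the 9 members, the 3 of highest mean CPM in each list, any gene called, and the 2 nearest profiles of each member, with exceptions stated. Coordinates are those of mm10. The labels name 2 samples per group and no batch. They do not say which mouse each came from, so p-values measure the spread between these samples.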

Additional observations from a re-analysis of the deposited data

How the results depend on the processing

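With 2 libraries per group, the calls depended on which TAK-931-treated library was kept. No member was called under other scalings, filters, the replicate block, DESeq2, limma-voom or halved counts (added after seeing the data, since both mates appear counted). The number of genes called in the whole table was 0 in the edgeR fit, 144 with the replicate block and 1389 with DESeq2. Leaving out each library in turn gave 0 to 9 members called (6 without TAK-931-1 and 9 without TAK-931-2), 0 to 8424 genes called (3996 without TAK-931-1), a median log2 fold change of the members from -1.52 to -0.06 and 5 to 9 negative members. It moved the log2 fold change of Prdm1 from -0.94 to 0.39, of Irf4 from -1.35 to 1.15, of Jchain from -0.80 to 0.59 and of Trap1a from -1.67 to 0.15. With the replicate block, Irf4 was at -0.0861 and Jchain at -0.0868, and with limma-voom Irf4 was at -0.0844 and Jchain at -0.0874, so that all 9 members were negative under each. The cause was not tested. Same-numbered libraries share only a number (their deviations correlated at 0.004), so the block is no pairing, and a lost or gained call under it is not read as an effect. The lowest adjusted p of a member was 0.242 with the block (Fkbp11) and 0.172 with DESeq2. The count lower in both treated libraries was 5, or 4 by library totals only.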
